A study of Mus musculus with 6 samples.

Results

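Early secretory traffic was examined through 37 genes of COPII, COPI and the machinery around them, found by symbol among the 55536 genes of a liver RNA sequencing table. They were 11 genes of the COPII coat and its assembly, 11 cargo receptor genes, 10 genes of COPI and its ARF GTPases, and 5 genes of tethering and fusion. All 37 were found once each and all were expressed at a level that could be tested. The livers came from C57BL/6 mice aged 8 to 10 weeks whose Vmp1 alleles were floxed in both groups. In the 3 libraries labelled hepatocyte-specific VMP1 knockout (H-VMP1 KO, called labelled knockout here), the mice had received the virus AAV8-TBG-cre, in which the TBG promoter drives Cre recombinase in hepatocytes. In the 3 WT libraries they had received AAV8-TBG-null, which carries no Cre, and in both groups 2 weeks passed before the livers were taken. Whether each sample of a group was a different animal is not in the labels. A p-value here therefore reflects how far these samples vary, and some of that variation may be technical. Whole liver was sequenced, and cells other than hepatocytes keep an intact Vmp1 gene.

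COPII is the coat that buds vesicles from the endoplasmic reticulum (ER). The exchange factor PREB (SEC12) loads the GTPase SAR1 with GTP, SAR1 recruits the inner layer of SEC23 and SEC24, which binds cargo, and the outer layer of SEC13 and SEC31 then shapes the vesicle. COPI, built of coatomer and the GTPase ARF1, carries escaped ER proteins and receptors back from the Golgi. Hepatocytes send most plasma proteins and very-low-density lipoproteins (VLDL) along this route. VMP1 is itself a membrane protein of the ER that acts in autophagy and lipid handling, and the series title concerns hepatic lipoprotein secretion, so the comparison asks what the genes of ER export and retrieval do once Vmp1 is targeted.

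Levels are given as TPM, a transcript abundance corrected for length and brought to a common total per library, so levels of different genes can be set side by side. TPM keeps no read number, and the depth is unknown. Differences, labelled knockout minus WT, are log2 fold changes ± SE of log2(TPM + 1), with Benjamini-Hochberg adjusted p from limma over all 12796 genes tested, and means are given ± SD with n = 3 libraries per group. A gene is called at an adjusted p under 0.05. Vmp1 itself (GRCm38 chromosome 11, 86583865 to 86683836) was at 157, 136 and 137 TPM in labelled knockout libraries, against 70.7, 96.5 and 88.6 TPM in WT, which goes against the label. Its log2 fold change was 0.75 ± 0.13 as deposited (adjusted p = 3.8e-04) but -0.16 under median-of-ratios scaling (adjusted p = 0.25). This value is for the whole gene, and the sources do not name the floxed exons, so it does not check the deletion. The major urinary protein genes held 0.341 to 0.545% of the TPM in the labelled knockout libraries and 11.6 to 21.2% in WT, and the median log2 fold change of all tested genes was 0.77. Under median-of-ratios scaling, where the middle gene is taken as steady, log2 fold changes were lower by 0.81 in the median, and both values are given below because many calls turn on this choice. Among marker genes, 12 of 12 macrophage, 12 of 12 endothelial and 12 of 12 stellate cell genes were called higher as deposited (74.5% of all tested genes), while 9 of 12 hepatocyte genes were called lower (10.7%). Under median-of-ratios scaling the counts were 12, 9 and 12 higher (36.2% of all tested genes), and 12 of 12 hepatocyte genes lower (35.6%). Of these markers, 2 macrophage genes and 1 stellate cell gene were under 1 TPM in every WT library. They passed the filter of at least 1 TPM in 3 libraries only through the labelled knockout. The stellate cell genes Des, Pdgfrb and Col1a1 and the endothelial gene Emcn would not have passed on their WT libraries alone either. Summed over each list, macrophage markers were at 1021 to 1342 TPM in the labelled knockout and 98.4 to 160 TPM in WT, and hepatocyte markers at 30210 to 33500 TPM in the labelled knockout and 53840 to 74590 TPM in WT. Endothelial markers were at 238 to 289 TPM in the labelled knockout and 75.8 to 86.0 TPM in WT, and stellate markers at 332 to 385 TPM in the labelled knockout and 62.0 to 66.9 TPM in WT. The 7 B and plasma cell markers summed to 27.9 to 30.5 TPM in the labelled knockout and 2.38 to 3.22 TPM in WT. Of the tested markers, 3 of 4 B and plasma cell, 4 of 5 cholangiocyte, 3 of 4 neutrophil and 1 of 1 T and NK cell genes were under 1 TPM in every WT library and passed the filter of at least 1 TPM in 3 libraries only through the labelled knockout. They had to differ, and no count of calls is given for these 4 lists. Of the hepatocyte, macrophage, endothelial, stellate and B and plasma cell lists, 1 gene, the plasma cell marker Tnfrsf17, was listed at 0 in any library, a WT one. In bulk liver, fewer cells of a type and less RNA per cell cannot be told apart, and the part of these shifts in the results below was not tested.

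As a group, the 37 genes were higher in the labelled knockout as deposited but rose by less than the middle gene of the liver. Their summed level was 2820, 2600 and 2847 TPM in the labelled knockout libraries, against 1618, 1722 and 1578 TPM in WT, so the groups did not overlap. As deposited, 35 of 37 were called higher and 0 lower, where 74.5% of all tested genes were called higher and 10.7% lower. The 2 genes not called were Sec24a and Lman1. The median log2 fold change of the 37 was 0.57, against 0.77 for all tested genes, and 15 of the 37 lay above that 0.77, Kdelr1 only narrowly. With median-of-ratios scaling 10 were called higher and 21 lower, where 36.2% of all tested genes were higher and 35.6% lower, and the median of the 37 was -0.31, against 0.01 for all. With quantile normalization 12 were higher (35.3% of all tested genes) and 11 lower (35.4%). Rescaled without the urinary protein genes, genes of the mitochondrial genome and the 20 genes of highest TPM, 18 were higher (60.6%) and 2 lower (17.3%). The direction of most of these genes therefore turned with the scaling, and for 19 of the 37 the call was higher in the deposited values but lower after median-of-ratios scaling (12.1% of all tested genes).

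The 10 genes called higher with both scalings (36.2% of all tested genes met this) came from all 4 roles: Sec24b and Sec13 of COPII, the cargo receptor genes Tmed3, Tmed9, Tmed10 and Kdelr3, Copg1, Arf1 and Arf4 of COPI, and the fusion gene Gosr2. All 4634 tested genes called higher with median-of-ratios scaling were also called higher as deposited. The deposited call thus adds nothing to the call with median-of-ratios scaling. No member (0) was called lower with both, against 10.7% of all tested genes. All 1369 tested genes called lower as deposited were also lower with median-of-ratios scaling, so for lower calls the second scaling adds nothing. In 34 of the 37 every labelled knockout library lay above every WT library (75.5% of all tested genes), in Sec24a and Lman1 every one lay below (11.3%), and in Stx5a the groups overlapped. Kdelr3 was under 1 TPM in every WT library and passed the filter only through the labelled knockout, so that it had to differ. Without it, 34 of 36 were higher as deposited, against 9 after median-of-ratios scaling. Labelled knockout replicate 2 was the lowest of its group in 29 of the 37 genes, and among WT libraries replicate 3 was the lowest in 23 and replicate 2 the highest in 27. Under median-of-ratios scaling, leaving out 1 library at a time kept the call of Sec24b, Tmed10, Copg1, Arf1, Arf4 and Gosr2 in 6 of 6 fits. Sec13 lost it without WT replicate 2 (0.18, adjusted p = 0.064), Tmed9 without WT replicate 1 (0.19, adjusted p = 0.051), and Tmed3 without WT replicate 1 (0.36, adjusted p = 0.051) or 3 (0.49, adjusted p = 0.051). For Kdelr3, leaving out a library is no test, since it can be fitted only with all labelled knockout libraries present.

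**Figure D1:**
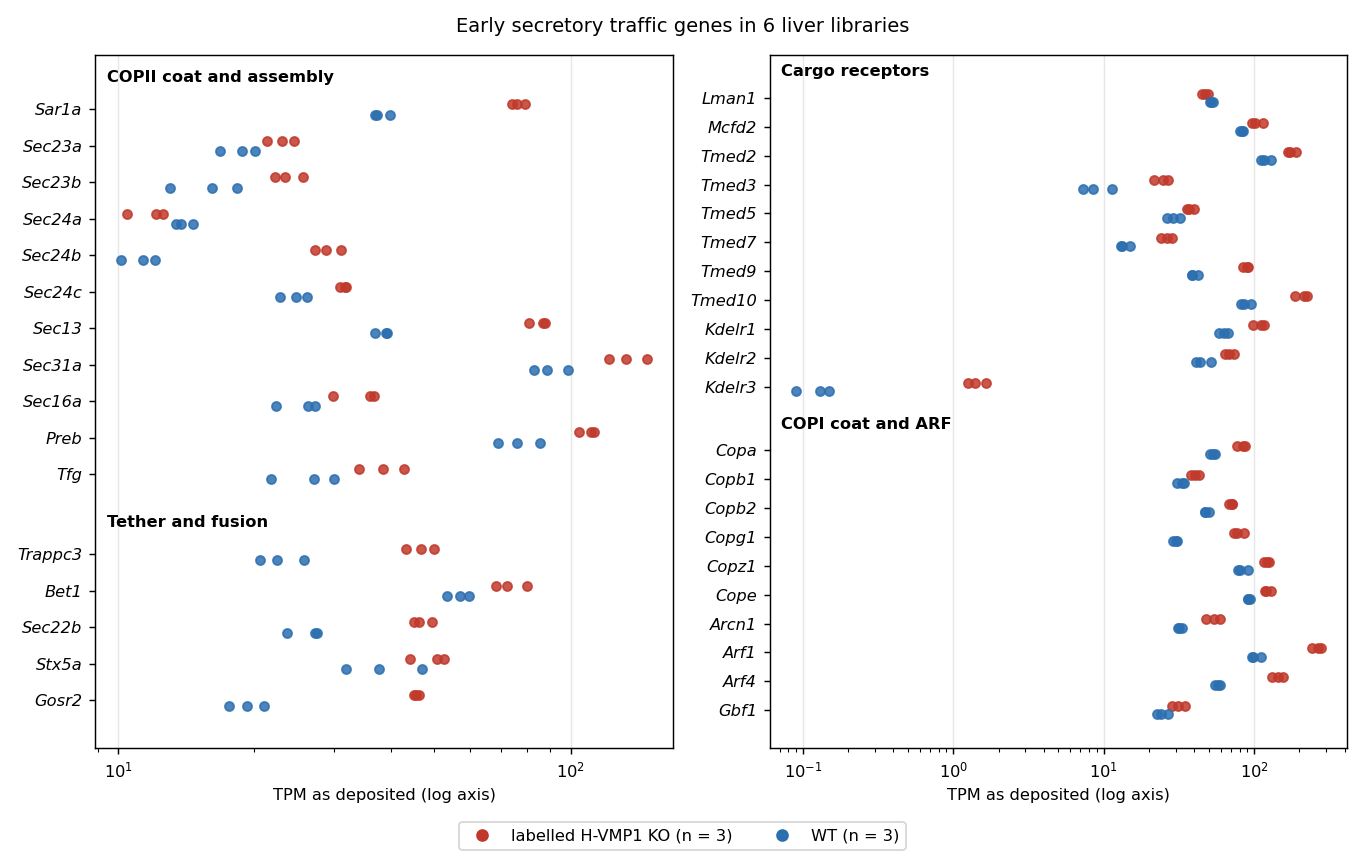
TPM as deposited (log axis) of the 37 genes, by role, with each library as a point (labelled knockout above, WT below each gene's line). Red points lie right of the blue ones in 34 genes, left of them in Sec24a and Lman1, and among them in Stx5a. Kdelr3 sits near 0.1 TPM in WT and between 1.25 and 1.64 TPM in the labelled knockout.

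Promoter sequence is shown for the genes that hold the core of the unfolded protein response element TGACGTGG, a motif that XBP1 and ATF6 bind when the ER is under load. RefSeq windows of 250 bases before to 50 after the start on GRCm38.p6 were at hand for 32 of the 37 genes. The motif, read on both strands, was in 7 of these 32 (21.9%), against 0.714% of 27025 genes with a window and 0.997% of the 9524 tested ones. Each line gives the gene's strand 5′ to 3′, with the motif or its reverse complement in capitals and up to 22 bases on each side.
Sec23a: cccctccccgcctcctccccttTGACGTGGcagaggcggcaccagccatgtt
Kdelr3: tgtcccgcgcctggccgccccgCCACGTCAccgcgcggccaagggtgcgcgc
Copb1: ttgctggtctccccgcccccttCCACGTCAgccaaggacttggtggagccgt
Copb2: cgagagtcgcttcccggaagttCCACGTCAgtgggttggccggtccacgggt
Arf1: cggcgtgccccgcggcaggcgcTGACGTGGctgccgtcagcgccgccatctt
Gbf1: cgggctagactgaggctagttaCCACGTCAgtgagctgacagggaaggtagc
Stx5a: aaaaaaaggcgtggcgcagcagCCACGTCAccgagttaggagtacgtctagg
These stretches lie at chr12:59011982-59012033 (minus strand) for Sec23a, chr15:79516356-79516407 (plus strand) for Kdelr3, chr7:114254679-114254730 (minus strand) for Copb1 and chr9:98563702-98563753 (plus strand) for Copb2. Those of Arf1, Gbf1 and Stx5a are at chr11:59228217-59228268 (minus strand), chr19:46152524-46152575 (plus strand) and chr19:8741411-8741462 (plus strand). Counted from the start site, the first capital is at 7 in Sec23a, -30 in Kdelr3, -28 in Copb1, -7 in Copb2, -12 in Gbf1 and 10 in Stx5a. Arf1 has 2 annotated starts, and it is at 22 from the upstream start and at -84 from the other. Stx5a holds the motif a second time, at 40.

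The 7 genes with the motif did not move alike. Arf1 and Kdelr3 were higher with both scalings (36.2% of all tested genes), and the other 5 were higher as deposited but called lower after median-of-ratios scaling (12.1%). The filter keeps the groups of Kdelr3 apart as deposited, so its call is no result. Among the 25 without the motif, 8 were higher with both and 12 turned to lower. For the 7 genes the median log2 fold change was 0.34, with a range of 0.30 to 1.35, and for the 25 it was 0.63, with a range of -0.23 to 1.36. The longer ER stress response elements, CCAAT with CCACG after 9 further bases and ATTGG with CCACG after 1 further base, were in 0 of the 32 windows (0.137% and 0.0444% of all genes with a window, 0.189% and 0.0945% of the tested ones). The cyclic AMP response element TGACGTCA was in those of Cope and Gosr2 (2.03% of all genes, 3.49% of the tested ones), and the lysosomal CLEAR element was in 0 (0.37% and 0.787%). The antioxidant response core TGACNNNGC was in 8 of 32 (25.0%), against 14.0% of all genes and 16.9% of the tested ones, and in 4 of the 7 genes above it overlaps the capitals. The motifs were chosen after the values were seen, a match is a description and not a binding site, and binding was not measured.

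COPII genes were uneven, with Sec24b, Sec13 and Sar1a at the top and Sec24a at the bottom. Of the 11, 10 were called higher as deposited and 0 lower (74.5% and 10.7% of all tested genes), and 2 and 8 with median-of-ratios scaling (36.2% and 35.6%). SEC24 is the cargo-binding subunit, and its paralogs differ in the sorting signals they read. Sec24b (ENSMUSG00000001052, GRCm38 chromosome 3, 129982759 to 130061553) was at 31.1, 27.2 and 28.9 TPM in labelled knockout libraries, against 11.3, 12.1 and 10.2 TPM in WT. Its log2 fold change was 1.30 ± 0.10 with adjusted p = 2.3e-06, and 0.44 with median-of-ratios scaling (adjusted p = 6.7e-04). Sec24a (ENSMUSG00000036391, chromosome 11, 51692264 to 51763634) was at 12.1, 10.4 and 12.5 TPM in labelled knockout libraries, against 14.6, 13.8 and 13.4 TPM in WT. Every labelled knockout library was thus below every WT library, yet Sec24a missed the threshold as deposited (-0.23 ± 0.10, adjusted p = 0.057) and was called lower with median-of-ratios scaling (-1.08, adjusted p = 1.9e-05). Sec24c was at 30.9, 31.7 and 31.95 TPM in labelled knockout libraries, against 26.1, 24.7 and 22.8 TPM in WT, a smaller difference of 0.35 ± 0.09 (adjusted p = 0.0054) that turned to -0.54. Sec24d, the fourth paralog and not among the 37, was at 17.4 ± 0.471 TPM in the labelled knockout and 16.1 ± 1.20 TPM in WT and was not called as deposited (0.11 ± 0.10, adjusted p = 0.3).

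The make-up of the SEC24 family shifted in a way that does not depend on the scaling between libraries, because it is read within each library. Sec24b made up 32.4 ± 1.59% in the labelled knockout and 17.0 ± 0.783% in WT of the family's summed TPM, and ranked 2 of 4 among the paralogs in the labelled knockout and 4 of 4 in WT. The share of Sec24a was 13.0 ± 0.924% in the labelled knockout and 21.2 ± 0.774% in WT, and that of Sec24d was 19.4 ± 0.875% in the labelled knockout and 24.5 ± 0.552% in WT. Sec24c held the largest share in both groups, with 35.2 ± 1.27% in the labelled knockout and 37.3 ± 0.706% in WT. Shares are tied, so the larger share of Sec24b by itself lowers the others. The ratio of Sec24c to Sec24d was higher, at 1.83, 1.8 and 1.8 in the labelled knockout libraries, against 1.57, 1.46 and 1.55 in WT. That of Sec24d to Sec24a was higher too, at 1.39, 1.69 and 1.41 in the labelled knockout libraries, against 1.14, 1.23 and 1.1 in WT. The ratio of Sec24a to Sec24b was 0.39, 0.384 and 0.435 in the labelled knockout libraries, against 1.29, 1.14 and 1.32 in WT, a log2 difference of -1.63 ± 0.09. For this and each other ratio or share whose groups did not overlap, the exact permutation test (two-sided) gave p = 0.1, the lowest value possible with 3 against 3, with an adjusted p of 0.114 over the 16 ratios tested, and shares were not adjusted. None of the 16 (0) can therefore pass 0.05, and no model was fitted to ratios. They are read by size and by whether the groups overlap, and they did not overlap in 14 of the 16. How often the ratio of any 2 genes would separate the groups was not examined, so this count is not a result about these pairs. Taken singly, 75.5% of all tested genes were higher without overlap and 11.3% lower.

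SAR1, the GTPase that starts the COPII coat, showed a similar contrast between its paralogs. Sar1a (ENSMUSG00000020088, chromosome 10, 61680299 to 61693297) was at 79.2, 74.1 and 75.9 TPM in labelled knockout libraries, against 37.4, 39.9 and 37.02 TPM in WT, with a log2 fold change of 0.99 ± 0.09 (adjusted p = 4.7e-06) that was 0.08, without a call, under median-of-ratios scaling. Sar1b, the paralog whose human counterpart is mutated in chylomicron retention disease, was at 89.2, 74.5 and 89.5 TPM in labelled knockout libraries, against 93.7, 95.5 and 84.6 TPM in WT, and these groups overlapped (-0.11 ± 0.11, adjusted p = 0.34). With median-of-ratios scaling Sar1b was called lower (-1.02, adjusted p = 1.6e-05). The ratio of Sar1a to Sar1b was 0.888, 0.994 and 0.849 in the labelled knockout libraries, against 0.399, 0.418 and 0.437 in WT, a log2 difference of 1.12 ± 0.08. Sar1a made up 47.6 ± 2.04% in the labelled knockout and 29.5 ± 0.962% in WT of the pair, so that the 2 paralogs came near to equal levels in the labelled knockout.

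**Figure D2:**
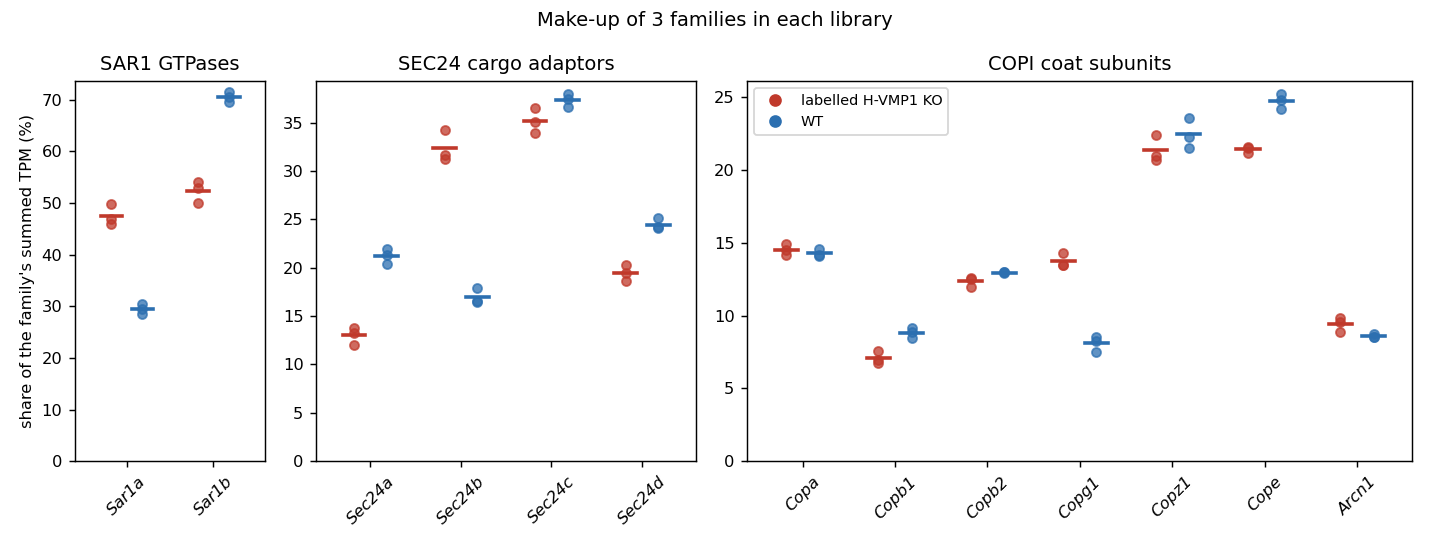
Share of each family's summed TPM (%) held by each gene in each library, labelled knockout left and WT right of each tick, with bars at the group means. Sar1a, Sec24b, Copg1 and Arcn1 have a larger share in every labelled knockout library than in any WT library. Sar1b, Sec24a, Sec24c, Sec24d, Copb1, Copb2 and Cope have a smaller one, Sec24c only narrowly, and the groups of Copa and Copz1 overlap. Shares within a family are tied, so a larger share of any gene lowers those of the others.

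The other inner coat genes, Sec23a and Sec23b, differed less. SEC23 activates the GTPase of SAR1. Sec23a was at 23.03, 21.4 and 24.5 TPM in labelled knockout libraries, against 18.8, 20.01 and 16.8 TPM in WT, and Sec23b at 22.2, 25.6 and 23.3 TPM in labelled knockout libraries, against 16.1, 18.3 and 12.99 TPM in WT. Both were called higher as deposited, Sec23a by 0.30 ± 0.10 (adjusted p = 0.023) and Sec23b by 0.57 ± 0.13 (adjusted p = 0.0024), and both lower with median-of-ratios scaling (-0.58 and -0.31). The call of Sec23a did not hold without labelled knockout replicate 1 (0.29, adjusted p = 0.06) or 3 (0.25, adjusted p = 0.1) and without WT replicate 3 (0.23, adjusted p = 0.085). Relative to Sec23b it was lower, at 1.04, 0.836 and 1.05 in the labelled knockout libraries, against 1.17, 1.09 and 1.29 in WT. In the outer layer, Sec13 (ENSMUSG00000030298, chromosome 6, 113728062 to 113740743) was at 87.1, 81.1 and 87.7 TPM in labelled knockout libraries, against 39.0, 39.3 and 36.9 TPM in WT and rose by 1.13 ± 0.09 on the log2 scale (adjusted p = 2.1e-06). SEC13 also serves the nuclear pore and the GATOR2 complex of nutrient sensing. Its coat partner Sec31a was at 147, 122 and 132 TPM in labelled knockout libraries, against 88.8, 98.8 and 83.1 TPM in WT, a difference of 0.56 ± 0.11 (adjusted p = 9.1e-04) that turned to -0.35. The ratio of Sec13 to Sec31a was 0.591, 0.666 and 0.663 in the labelled knockout libraries, against 0.439, 0.398 and 0.444 in WT, without overlap.

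Genes that organise COPII budding sites rose as deposited but fell under median-of-ratios scaling. Preb was at 111, 104 and 113 TPM in labelled knockout libraries, against 76.1, 85.6 and 69.2 TPM in WT. Sec16a, the scaffold of ER exit sites, was at 36.01, 29.8 and 36.7 TPM in labelled knockout libraries, against 27.2, 26.3 and 22.4 TPM in WT, and Tfg, which gathers COPII vesicles near those sites, at 42.8, 34.1 and 38.4 TPM in labelled knockout libraries, against 29.95, 27.2 and 21.8 TPM in WT. Their groups did not overlap, and their log2 fold changes of 0.51, 0.42 and 0.54 (adjusted p = 0.0013, 0.0078 and 0.0041) became -0.40, -0.47 and -0.35. Preb shares exon sequence with Abhd1 on the other strand, which averaged 3.01 TPM in the labelled knockout and 3.53 TPM in WT, and without a stated strand setting their reads cannot be told apart. The paralogs Sec16b and Sec31b, named after their values were seen, were called lower with both scalings. Sec16b, a second SEC16 gene, was at 11.6 ± 1.01 TPM in the labelled knockout and 18.5 ± 2.10 TPM in WT (-0.62 ± 0.12, adjusted p = 6.4e-04), and Sec31b at 1.10 ± 0.131 TPM in the labelled knockout and 2.09 ± 0.155 TPM in WT (-0.56 ± 0.10, adjusted p = 5.9e-04).

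Cargo receptor genes ranged from the p24 genes Tmed3 and Tmed10 at the top to the lectin gene Lman1 at the bottom. Of the 11, 10 were called higher as deposited and 0 lower (74.5% and 10.7% of all tested genes), and 4 and 5 with median-of-ratios scaling (36.2% and 35.6%). The p24 (TMED) proteins cycle between ER and Golgi as complexes of several subfamilies and sort GPI-anchored and other secreted proteins. Tmed10 (ENSMUSG00000021248, chromosome 12, 85340614 to 85374847), the delta member of the complex, was at 215, 188 and 225 TPM in labelled knockout libraries, against 81.8, 94.7 and 85.7 TPM in WT, a log2 fold change of 1.25 ± 0.11 (adjusted p = 4.0e-06) that was 0.34 with median-of-ratios scaling (adjusted p = 0.006). It became the most abundant of the 11 in the labelled knockout, a place that Tmed2 held in WT. Tmed9, of the alpha subfamily, was at 91.1, 83.8 and 89.97 TPM in labelled knockout libraries, against 38.4, 42.6 and 38.9 TPM in WT (1.13 ± 0.09, adjusted p = 2.7e-06). Tmed3, a gamma member, was at 21.6, 26.6 and 24.6 TPM in labelled knockout libraries, against 7.23, 11.3 and 8.44 TPM in WT, with WT replicate 2 the highest of the WT libraries. Its log2 fold change of 1.35 ± 0.15 (adjusted p = 2.4e-05) had the widest error of the 37.

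The remaining p24 genes rose by less as deposited, and under median-of-ratios scaling 0 of them were called higher. Tmed2, the beta member, was at 174, 167 and 189 TPM in labelled knockout libraries, against 116, 111 and 129.8 TPM in WT (0.57 ± 0.10, adjusted p = 5.7e-04), and turned to -0.35. Tmed7 was at 26.3, 23.9 and 28.4 TPM in labelled knockout libraries, against 13.03, 14.98 and 13.1 TPM in WT (0.89 ± 0.11, adjusted p = 3.2e-05) and was near 0 (0.01) with median-of-ratios scaling. Tmed5 was at 37.1, 35.8 and 39.6 TPM in labelled knockout libraries, against 32.3, 28.8 and 26.3 TPM in WT (0.36 ± 0.10, adjusted p = 0.0092), and turned to -0.53. Among gamma members, the ratio of Tmed7 to Tmed5 was 0.708, 0.669 and 0.717 in the labelled knockout libraries, against 0.403, 0.521 and 0.499 in WT, without overlap. The ratio of Tmed3 to Tmed2 was 0.124, 0.159 and 0.13 in the labelled knockout libraries, against 0.0626, 0.101 and 0.065 in WT, also without overlap, and that of Tmed9 to Tmed10 was 0.423, 0.446 and 0.4 in the labelled knockout libraries, against 0.469, 0.449 and 0.453 in WT, a log2 difference of -0.11 ± 0.05. Tmed5 overlaps exons of Mtf2 on the other strand (5.56 TPM in the labelled knockout and 2.41 TPM in WT), and Tmed7 those of Ticam2 on the same strand (0.53 TPM in the labelled knockout and 0.0267 TPM in WT), so part of their reads is uncertain.

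LMAN1 (ERGIC-53) and MCFD2 form the receptor that exports coagulation factors V and VIII. Lman1 was at 44.8, 46.8 and 49.6 TPM in labelled knockout libraries, against 50.6, 53.6 and 51.6 TPM in WT, lower in every labelled knockout library but not called as deposited (-0.14 ± 0.09, adjusted p = 0.17). With median-of-ratios scaling it was called lower (-1.04, adjusted p = 1.8e-05). Mcfd2 was at 114, 102 and 96.6 TPM in labelled knockout libraries, against 80.9, 82.7 and 84.2 TPM in WT (0.33 ± 0.10, adjusted p = 0.01), and turned to -0.58. Its call as deposited did not hold without labelled knockout replicate 1 (0.26, adjusted p = 0.062). The ratio of Lman1 to Mcfd2 was 0.392, 0.46 and 0.514 in the labelled knockout libraries, against 0.625, 0.648 and 0.612 in WT, a log2 difference of -0.47 ± 0.12.

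KDEL receptors return ER chaperones that have escaped to the Golgi. Kdelr1 was at 110.4, 98.5 and 116 TPM in labelled knockout libraries, against 58.8, 66.9 and 63.4 TPM in WT (0.77 ± 0.10, adjusted p = 6.4e-05), and Kdelr2 at 73.9, 63.6 and 68.1 TPM in labelled knockout libraries, against 43.8, 51.5 and 40.8 TPM in WT (0.59 ± 0.11, adjusted p = 7.6e-04). With median-of-ratios scaling Kdelr1 was not called (-0.14, adjusted p = 0.15) and Kdelr2 was lower (-0.31). Their ratio was 1.49, 1.55 and 1.70 in the labelled knockout libraries, against 1.34, 1.30 and 1.55 in WT, and these groups overlapped (exact permutation p = 0.3, adjusted p = 0.32). Kdelr3 (ENSMUSG00000010830, chromosome 15, 79516411 to 79527739), low in liver, was at 1.39, 1.64 and 1.25 TPM in labelled knockout libraries, against 0.09, 0.15 and 0.13 TPM in WT, and its share of the 3 receptors' TPM was 0.808 ± 0.171% in the labelled knockout and 0.113 ± 0.0219% in WT. Its log2 fold change of 1.11 ± 0.10 (adjusted p = 5.0e-06) understates the change because of the pseudocount. Exons of Kdelr3 overlap Ddx17 on the other strand, which averaged 48.4 TPM in the labelled knockout and 42.8 TPM in WT, so some reads at Kdelr3 may belong there, and the share is not known.

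COPI genes rose as deposited by amounts that set Copg1, Arf1 and Arf4 apart from the other 7. All 10 were called higher and 0 lower as deposited (74.5% and 10.7% of all tested genes), and 3 and 6 with median-of-ratios scaling (36.2% and 35.6%). Copg1 (ENSMUSG00000030058, chromosome 6, 87887814 to 87913595) encodes a gamma subunit of coatomer, which binds ARF1. It was at 76.5, 73.6 and 85.8 TPM in labelled knockout libraries, against 30.1, 29.02 and 30.8 TPM in WT and rose by 1.36 ± 0.10 on the log2 scale (adjusted p = 1.1e-06), or by 0.46 with median-of-ratios scaling (adjusted p = 0.0025). Coatomer is a complex of 7 subunits, and the other 6 had log2 fold changes of 0.30 to 0.73 as deposited. All 6 were called higher so (74.5% of all tested genes), and under median-of-ratios scaling 0 were higher and 5 lower (36.2% and 35.6%).

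Read within each library, Copg1 sat in the middle of the coat in the labelled knockout and at its bottom in WT. Copg1 averaged 78.6 ± 6.38 TPM in the labelled knockout and 29.98 ± 0.902 TPM in WT, and Cope, the most abundant of the 7 coat genes in both groups, 122 ± 6.03 TPM in the labelled knockout and 91.7 ± 1.56 TPM in WT. Copg1 ranked 4 of 7 in the labelled knockout and 7 of 7 in WT, and its share of the summed coat TPM was 13.8 ± 0.473% in the labelled knockout and 8.09 ± 0.523% in WT. Against the geometric mean of the other 6, its log2 level was 0.01, 0.04 and 0.12 in the labelled knockout libraries, against -0.78, -0.91 and -0.71 in WT. Its paralog Copg2 was at 10.5 ± 0.319 TPM in the labelled knockout and 6.44 ± 0.937 TPM in WT, and the ratio of Copg1 to Copg2 was 7.50, 7.09 and 7.93 in the labelled knockout libraries, against 5.29, 3.87 and 5.02 in WT. This comparison of Copg1 with its coat was chosen after its value was seen.

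The other coat genes kept closer together. Copa (alpha) was at 84.5, 76.99 and 86.6 TPM in labelled knockout libraries, against 53.01, 55.1 and 51.0 TPM in WT, and held 14.5 ± 0.383% in the labelled knockout and 14.3 ± 0.234% in WT of the coat, with overlapping groups. Copb1 (beta) was at 42.9, 37.7 and 40.4 TPM in labelled knockout libraries, against 33.2, 34.2 and 30.6 TPM in WT, and Copb2 (beta prime) at 71.3, 67.7 and 71.6 TPM in labelled knockout libraries, against 47.3, 50.4 and 46.8 TPM in WT. Their shares were lower in every labelled knockout library, that of Copb1 being 7.10 ± 0.434% in the labelled knockout and 8.81 ± 0.33% in WT, which made it the least abundant subunit in the labelled knockout. These shares are of a sum that includes Copg1, so the larger share of Copg1 by itself lowers those of the other subunits. Shares without Copg1 were not examined, and a lower share here is no fall relative to the other 6. Cope (epsilon) was at 119.7, 117 and 129 TPM in labelled knockout libraries, against 90.4, 93.4 and 91.1 TPM in WT, and Copz1 (zeta) at 117, 122 and 126 TPM in labelled knockout libraries, against 78.4, 91.4 and 80.6 TPM in WT, the 2 most abundant in both groups. The share of Cope was lower, with 21.4 ± 0.238% in the labelled knockout and 24.7 ± 0.514% in WT. Arcn1 (delta) was at 54.0, 48.1 and 58.9 TPM in labelled knockout libraries, against 31.9, 33.03 and 30.98 TPM in WT, the largest rise of these 6 (0.73 ± 0.10, adjusted p = 9.2e-05), and was not called with median-of-ratios scaling (-0.17, adjusted p = 0.073). Adjusted p as deposited ran from 9.2e-05 for Arcn1 to 0.015 for Copb1, whose call did not hold without labelled knockout replicate 1 (0.25, adjusted p = 0.073) or 3 (0.29, adjusted p = 0.053) and without WT replicate 3 (0.25, adjusted p = 0.058). Copa overlaps exons of Ncstn on the other strand (38.3 TPM in the labelled knockout and 17.6 TPM in WT), and their reads may be mixed. Copz2, a second zeta gene, was at 44.1 ± 5.88 TPM in the labelled knockout and 22.6 ± 1.65 TPM in WT (0.93 ± 0.12, adjusted p = 4.9e-05, and 0.04 under median-of-ratios scaling), and the ratio of Copz1 to Copz2 was 2.54, 3.24 and 2.57 in the labelled knockout libraries, against 3.65, 3.73 and 3.69 in WT.

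ARF1 recruits coatomer and ARF4 acts beside it in the early Golgi, with GBF1 as their exchange factor. Arf1 (ENSMUSG00000048076, chromosome 11, 59211412 to 59228270) was at 267, 242 and 279 TPM in labelled knockout libraries, against 97.98, 112 and 97.2 TPM in WT, the most abundant of the 37 in the labelled knockout. Arf4 (ENSMUSG00000021877, chromosome 14, 26638074 to 26665084) was at 156, 131 and 144 TPM in labelled knockout libraries, against 59.3, 57.9 and 55.2 TPM in WT. Their log2 fold changes were 1.35 ± 0.11 and 1.31 ± 0.10 (adjusted p = 2.1e-06 and 1.7e-06), and 0.44 and 0.40 with median-of-ratios scaling. The ratio of Arf4 to Arf1 was 0.586, 0.544 and 0.515 in the labelled knockout libraries, against 0.605, 0.518 and 0.568 in WT, a log2 difference of -0.04 ± 0.08 with overlapping groups (exact permutation p = 0.7, adjusted p = 0.7). Gbf1 did not keep pace with them, at 34.7, 28.4 and 31.1 TPM in labelled knockout libraries, against 24.2, 26.8 and 22.6 TPM in WT (0.34 ± 0.11, adjusted p = 0.015), and was lower with median-of-ratios scaling (-0.54). Its call as deposited did not hold without labelled knockout replicate 1 (0.27, adjusted p = 0.07) or WT replicate 3 (0.29, adjusted p = 0.058). Arf4 overlaps exons of Pde12 on the other strand, at 3.64 TPM in the labelled knockout and 1.19 TPM in WT.

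**Figure D3:**
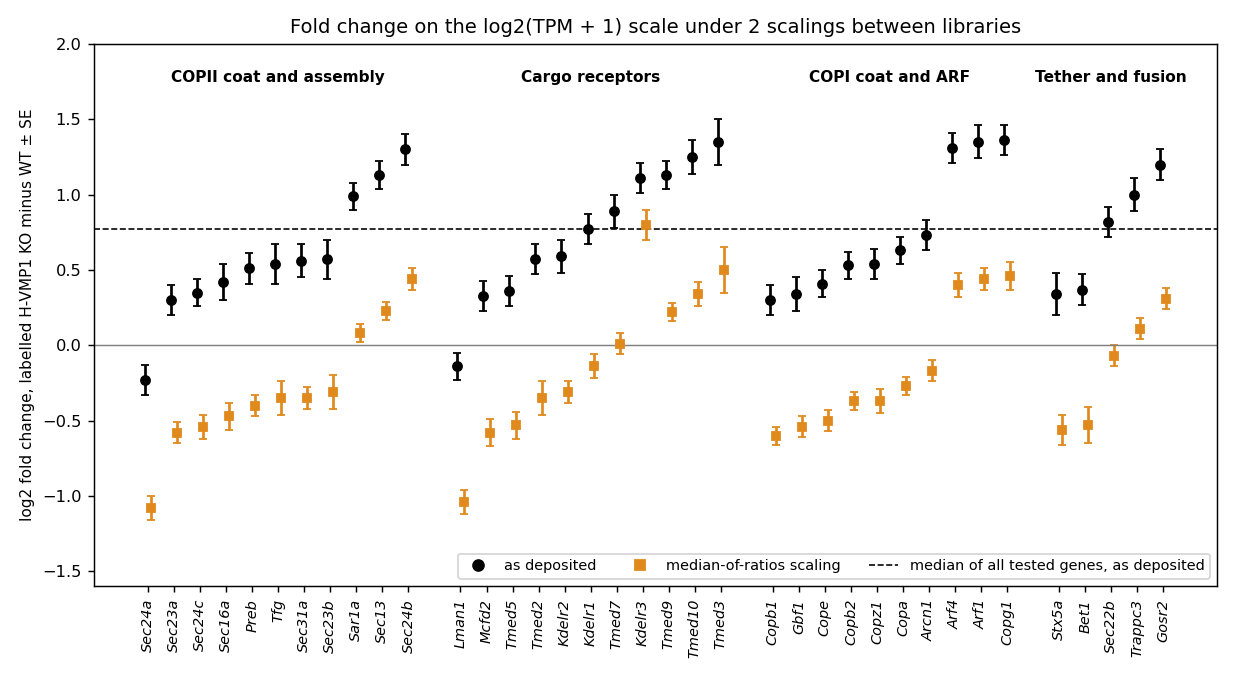
Log2 fold change ± SE of each of the 37 genes, labelled knockout minus WT, as deposited (circles) and after median-of-ratios scaling (squares), ordered within each role. The dashed line is the median of all tested genes as deposited (0.77), above which 15 genes lie. Copg1, Arf1 and Arf4 stand above the rest of COPI, and Sec24a and Lman1 below 0 with both scalings.

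Tethering and fusion genes were led by Gosr2. SNARE proteins on vesicle and Golgi pair up to fuse the membranes, and STX5, GOSR2, BET1 and SEC22B form such sets between ER and Golgi, while TRAPPC3 is part of the TRAPP complexes that tether the vesicle first. All 5 were called higher and 0 lower as deposited (74.5% and 10.7% of all tested genes), and 1 and 2 with median-of-ratios scaling (36.2% and 35.6%). Gosr2 (ENSMUSG00000020946, chromosome 11, 103676849 to 103697898) was at 46.1, 45.1 and 45.5 TPM in labelled knockout libraries, against 17.6, 20.99 and 19.3 TPM in WT, tight in the labelled knockout, with a log2 fold change of 1.20 ± 0.10 (adjusted p = 2.4e-06) and 0.31 with median-of-ratios scaling (adjusted p = 0.0063). Trappc3 was at 49.9, 43.2 and 46.6 TPM in labelled knockout libraries, against 22.4, 25.7 and 20.6 TPM in WT (a ratio of mean TPM of 2.04, adjusted p = 1.8e-05), and Sec22b at 49.3, 45.1 and 46.3 TPM in labelled knockout libraries, against 27.2, 27.5 and 23.6 TPM in WT (0.82 ± 0.10, adjusted p = 3.1e-05). Neither was called with median-of-ratios scaling (0.11 and -0.07). Bet1 was at 68.4, 79.9 and 72.5 TPM in labelled knockout libraries, against 59.5, 53.2 and 57.02 TPM in WT (0.37 ± 0.10, adjusted p = 0.0055), and turned to -0.53. Stx5a was at 50.6, 44.2 and 52.4 TPM in labelled knockout libraries, against 37.7, 46.9 and 31.95 TPM in WT, the one gene of the 37 whose groups overlapped, since WT replicate 2 reached the labelled knockout. Its call as deposited (0.34 ± 0.14, adjusted p = 0.045) did not hold without labelled knockout replicate 1 (0.32, adjusted p = 0.1) or 3 (0.29, adjusted p = 0.12) and without WT replicate 1 (0.33, adjusted p = 0.092) or 3 (0.21, adjusted p = 0.17).

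**Figure D4:**
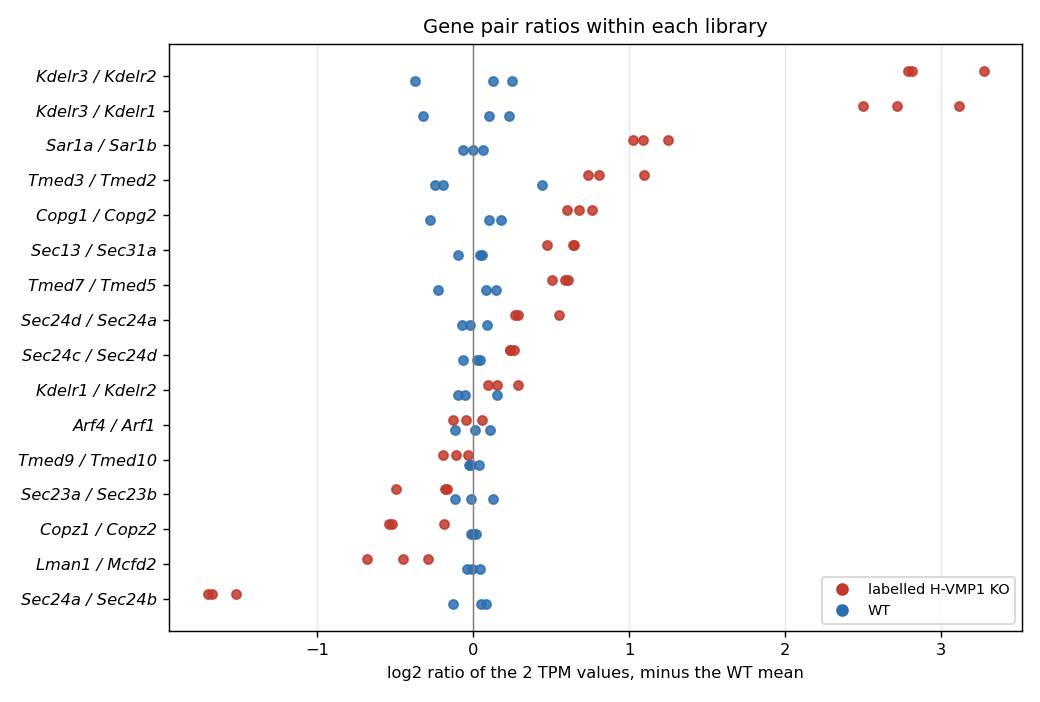
Log2 ratio of the 2 TPM values of 16 gene pairs in each library, minus the mean of the WT libraries, with labelled knockout points above WT points on each line. The groups overlap only for Kdelr1 / Kdelr2 and Arf4 / Arf1. The ratio of Sec24a to Sec24b is the lowest relative to WT, and those with Kdelr3 and the ratio of Sar1a to Sar1b are the highest.

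Other genes of the route were uneven too. Among 31 further tethers and SNARE partners, 28 were called higher and 0 lower as deposited (74.5% and 10.7% of all tested genes), and 5 and 14 with median-of-ratios scaling (36.2% and 35.6%). The TRAPP genes Trappc4 and Trappc6a were at 50.8 ± 2.72 TPM in the labelled knockout and 14.1 ± 1.90 TPM in WT, and at 47.1 ± 3.87 TPM in the labelled knockout and 14.6 ± 1.52 TPM in WT, with log2 fold changes of 1.79 ± 0.11 and 1.63 ± 0.11 (adjusted p = 6.0e-07 and 8.1e-07). Arfgap3, which switches ARF1 off, was at 9.50 ± 0.594 TPM in the labelled knockout and 2.95 ± 0.806 TPM in WT (1.43 ± 0.15, adjusted p = 1.3e-05), and the ER SNARE gene Use1 at 105 ± 11.2 TPM in the labelled knockout and 44.97 ± 6.58 TPM in WT (1.20 ± 0.13, adjusted p = 1.4e-05). These 4 stayed higher under median-of-ratios scaling, at 0.91, 0.75, 0.67 and 0.30. Of 15 tested paralogs of the 37, 9 were higher and 2 lower as deposited (74.5% and 10.7% of all tested genes), and 1 and 9 with median-of-ratios scaling (36.2% and 35.6%). The 1 was Arf6, an ARF of the plasma membrane, at 61.6 ± 3.69 TPM in the labelled knockout and 15.97 ± 1.32 TPM in WT (1.89 ± 0.10, adjusted p = 2.1e-07). Arf3 and Bet1l were higher as deposited (1.02 and 0.98, adjusted p = 7.4e-06 and 7.3e-04) but not under median-of-ratios scaling.

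A list of genes for export of large cargo, which in liver includes VLDL, also held the cargo receptor genes Ergic1, Ergic2 and Ergic3. It ranged from Ergic1 and Surf4 at the top to Mia2 and Mia3 at the bottom. Of 7 tested, 5 were higher and 0 lower as deposited (74.5% and 10.7% of all tested genes), and 0 and 5 with median-of-ratios scaling (36.2% and 35.6%). Surf4, a receptor for lipoproteins and other cargo, was at 127 ± 4.48 TPM in the labelled knockout and 74.04 ± 5.94 TPM in WT (0.77 ± 0.10, adjusted p = 4.4e-05), and was not called with median-of-ratios scaling (-0.14). Mia3 (TANGO1), which helps bulky cargo into COPII carriers, was at 109 ± 2.70 TPM in the labelled knockout and 111 ± 15.4 TPM in WT (-0.02 ± 0.11, adjusted p = 0.85). Mia2, its partner and named after its value was seen, was at 155 ± 8.86 TPM in the labelled knockout and 155 ± 13.7 TPM in WT (0.01 ± 0.10, adjusted p = 0.94). Both were called lower with median-of-ratios scaling (-0.93 and -0.90). The cargo receptor genes Ergic1, Ergic2 and Ergic3 rose as deposited by 0.85, 0.30 and 0.62 (adjusted p = 9.9e-06, 0.028 and 5.0e-04), but were at -0.05, -0.60 and -0.29 under median-of-ratios scaling. The call of Ergic2 did not hold without labelled knockout replicate 1 (0.30, adjusted p = 0.065) or 2 (0.25, adjusted p = 0.078) and without WT replicate 1 (0.21, adjusted p = 0.11). Klhl12, a ubiquitin ligase adaptor that enlarges COPII carriers, averaged 5.55 ± 0.135 TPM in the labelled knockout and 4.57 ± 0.111 TPM in WT (0.23 ± 0.09, adjusted p = 0.037), and turned to -0.53. It lost its call in the same 3 fits (0.25, 0.24 and 0.22, adjusted p = 0.078, 0.065 and 0.092), so that the count of higher genes in this list was 3 in each, and also without labelled knockout replicate 3 (0.22, adjusted p = 0.13) or WT replicate 3 (0.23, adjusted p = 0.071).

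Regulators known to raise secretory capacity were called in shares close to those of all tested genes, with Creb3l1 at the top and Creb3l3 at the bottom. Of 8 regulators, 6 were higher and 1 lower as deposited (74.5% and 10.7% of all tested genes), and 3 and 3 with median-of-ratios scaling (36.2% and 35.6%). Creb3l1 and Creb3l2, ER-anchored factors known in other cells to drive COPII genes, were at 4.38 ± 1.18 TPM in the labelled knockout and 0.36 ± 0.12 TPM in WT, and at 7.61 ± 0.722 TPM in the labelled knockout and 2.78 ± 0.764 TPM in WT (1.97 ± 0.16 and 1.20 ± 0.15, adjusted p = 2.9e-06 and 3.7e-05). Creb3l1 was under 1 TPM in every WT library and passed the filter only through the labelled knockout, so that it had to differ. It is among the 6 and the 3 counted as higher above, and its calls there are no result. With median-of-ratios scaling its log2 fold change was 1.47. Creb3l2 stayed higher with median-of-ratios scaling (0.46), as did Mbtps2, a protease that releases such factors from the membrane (4.56 ± 0.285 TPM in the labelled knockout and 1.60 ± 0.272 TPM in WT, 1.10 ± 0.11, adjusted p = 1.1e-05). Creb3l3, the liver-enriched member, named after its value was seen, went the other way, at 111, 94.96 and 121 TPM in labelled knockout libraries, against 188, 186 and 158 TPM in WT (-0.70 ± 0.12, adjusted p = 3.8e-04), and was lower with both scalings. Creb3 was higher as deposited (0.86 ± 0.13, adjusted p = 1.3e-04) but not under median-of-ratios scaling (-0.03). Xbp1 and Atf6, the factors named with the promoter motif, fall outside the rule for named genes and were added after their values were seen. Xbp1 was at 189, 131 and 157 TPM in labelled knockout libraries, against 89.4, 88.03 and 84.7 TPM in WT (0.84 ± 0.13, adjusted p = 2.1e-04), and was not called under median-of-ratios scaling (-0.07, adjusted p = 0.59). Atf6 was at 10.6, 10.8 and 10.8 TPM in labelled knockout libraries, against 9.31, 12.1 and 9.56 TPM in WT, with overlapping groups (0.06 ± 0.11, adjusted p = 0.65), and was called lower under median-of-ratios scaling (-0.78, adjusted p = 1.4e-04). TPM gives only the transcript level of these regulators, and their activity was not measured.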

How the data were processed

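RNA from 6 liver samples was sequenced, 1 library per sample, 3 per group. The authors deposited 1 table of TPM values with Ensembl identifiers and symbols, and each column sums to the same total. Per the submitters' processing notes, STAR 2.6.1c, RSEM, edgeR and genome build mm10 were used, with no role given. The strand setting is not given in the sources used here. How reads shared by close paralogs such as Arf1 and Arf3 were divided is not given either, so their values are less certain. TPM keeps no read totals, so the depth and any counting error are unknown and no count model was used. Each column was tied to its sample by title, with 0 left over.

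The 12796 genes that reached 1 TPM in 3 or more libraries were fitted as log2(TPM + 1) with limma 3.58.1 in R 4.3.3, with an intensity trend, robust variances and no replicate block. Median-of-ratios factors came from tested genes above 0 in every library. Ratios and shares used TPM with no pseudocount and two-sided exact permutation tests. Positions and exon overlaps came from GENCODE M21 on GRCm38 (mm10), where all 37 identifiers carried the same symbol. Figures used matplotlib 3.10.9 under Python 3.11.15. The limma fit was tested on simulated data with known changes. That simulation held no shift of the middle gene, so it does not bear on the choice of scaling.

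The members, lists, pairs and the rule for named genes were chosen with earlier results of these data known. Family shares, the comparison of Copg1 with its coat and the promoter motifs were added after the values were seen. The rule named all 37 members, values in every library for the largest, smallest and scaling-dependent ones, up to 4 called genes per further list, and Sar1b, Sec24d, Surf4, Mia3, Copz2 and Creb3l2.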

Additional observations from a re-analysis of the deposited data

How the results depend on the processing

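The scaling between libraries was the choice that mattered. With median-of-ratios scaling, quantile normalization and rescaling without abundant genes, in that order, counts were 10, 12 and 18 higher and 21, 11 and 2 lower of the 37 genes, and 4634, 4520 and 7731 higher and 4552, 4534 and 2209 lower of all tested genes. By role, in the same order, COPII had 2, 3 and 3 higher and 8, 4 and 1 lower, cargo receptors 4, 4 and 7 higher and 5, 3 and 1 lower, COPI 3, 3 and 5 higher and 6, 2 and 0 lower, and fusion genes 1, 2 and 3 higher and 2, 2 and 0 lower. Paralogs had 1, 2 and 8 higher and 9, 7 and 6 lower, the large cargo list 0, 1 and 3 higher and 5, 4 and 2 lower, tethers 5, 7 and 18 higher and 14, 12 and 3 lower, and regulators 3, 3 and 5 higher and 3, 3 and 2 lower.

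With median-of-ratios scaling the log2 fold changes of 22 genes turned negative. These were -0.58 for Sec23a, -0.31 for Sec23b, -0.54 for Sec24c, -0.35 for Sec31a, -0.47 for Sec16a, -0.40 for Preb and -0.35 for Tfg. Among cargo receptors they were -0.58 for Mcfd2, -0.35 for Tmed2, -0.53 for Tmed5, -0.14 for Kdelr1 and -0.31 for Kdelr2. In COPI they were -0.27 for Copa, -0.60 for Copb1, -0.37 for Copb2, -0.37 for Copz1, -0.50 for Cope, -0.17 for Arcn1 and -0.54 for Gbf1, and among fusion genes -0.53 for Bet1, -0.07 for Sec22b and -0.56 for Stx5a. With quantile normalization 17 turned negative: -0.48 for Sec23a, -0.21 for Sec23b, -0.38 for Sec24c, -0.31 for Sec16a, -0.08 for Preb, -0.17 for Tfg, -0.26 for Mcfd2, -0.35 for Tmed5, -0.07 for Kdelr2, -0.04 for Copa, -0.39 for Copb1, -0.13 for Copb2, -0.02 for Copz1, -0.14 for Cope, -0.39 for Gbf1, -0.29 for Bet1 and -0.34 for Stx5a. Rescaled without abundant genes 8 did, -0.08 for Sec23a, -0.03 for Sec24c, -0.06 for Mcfd2, -0.02 for Tmed5, -0.08 for Copb1, -0.03 for Gbf1, -0.01 for Bet1 and -0.04 for Stx5a. These scalings remove most or part of the median shift by construction.

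A pseudocount of 0.1, no filter, plain variances and a threshold of 0.01 kept the counts of the 37 within 1.5 times. Leaving out 1 library at a time gave 29 to 35 higher and 0 lower, and 8 to 11 higher and 14 to 20 lower with median-of-ratios scaling, a combination added after seeing the data. The count of higher genes in the large cargo list ranged from 3 to 5 as deposited, and the log2 ratio of Arf4 to Arf1 from -0.10 to 0.01, turning to 0.00 without labelled knockout replicate 3 and 0.01 without WT replicate 1. The sign of no other ratio (0 of 15) turned. Deviations of same-numbered libraries correlated at 0.0762, 0.0397 and -0.115, and labelled knockout replicate 3 correlated best with WT replicate 2 (0.0984). The labels do not say whether the numbers pair the samples, and with 3 libraries per group these correlations cannot decide it. With the replicate block 33 of the 37 were higher, Sec23a (adjusted p = 0.057) and Stx5a (0.064) losing their call, and with median-of-ratios scaling and the block 10 were higher and 21 lower.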
